A study of Mus musculus with 18 samples.

Results

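The brainstem of mice lacking Nrf2 was compared with the brainstem of wild-type mice on 6 arrays, 3 of each genotype, out of 18 arrays that also covered cerebral cortex and hippocampus. The arrays were chosen by the region and genotype in their labels, and all of their genes were described. All mice were male, of strain 129SV and unstressed. The design text speaks of independent RNAs, while the age of the mice, the allele and its deleted part are not given in the sources used here. Total RNA was amplified, labelled with Cy3 and hybridised to 1-colour Agilent arrays.

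Nrf2, encoded by Nfe2l2, is a transcription factor of the cap'n'collar family. In unstressed cells KEAP1 holds it in the cytoplasm and a cullin 3 ligase marks it for degradation. When oxidants or electrophiles modify KEAP1, Nrf2 accumulates, pairs with a small MAF protein and binds antioxidant response elements of genes for glutathione synthesis, glutathione transfer, NADPH supply and detoxification. In the brain, Nrf2 activity is known mainly from astrocytes and microglia.

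Levels are given as the log2 intensity of a gene's brightest probe minus the 75th percentile of its array. A level of 0 therefore equals that percentile, and levels of different genes are not set against each other. Differences are knockout minus wild type on this log2 scale, with the standard error of the limma fit after ±. A gene was called at a two-sided limma p adjusted over all 22671 tested genes under 0.05, and "well above background" is the scanner software's own call for a spot. Of the spots, 65.3% to 74.2% were well above background on the brainstem arrays, lowest on knockout 1, and 0 were saturated. Wild types 1 and 2 and knockouts 1 and 2 shared 1 slide, whereas wild type 3 and knockout 3 were on another.

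The tissue carried brainstem genes in both genotypes. The serotonin transporter Slc6a4 lay between -0.25 and -0.07 in wild type and between -0.56 and -0.25 in knockout. It was well above background on 0 wild-type cortex arrays but on 2 wild-type hippocampus arrays. Tph2, which makes serotonin in neurons, lay between -0.71 and -0.04 on all 6 arrays. Of 21 Hox genes on the array, which mark the hindbrain and spinal cord, 16 passed the filter on dim probes. That filter needs only 1 group of arrays, and 14 of the 16 were well above background on all 6 brainstem arrays. The neuropeptide Hcrt, made in the hypothalamus, was also well above background on all 6 arrays, at 3.18 to 3.64, and so was Pmch at 2.58 to 3.64. The dissected tissue thus carried RNA of genes known from the neighbouring hypothalamus in both genotypes.

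In knockout brainstem, 7 of the 22671 genes (0.0309%) were called, 2 higher (0.00882%) and 5 lower (0.0221%). The lower ones were Nfe2l2 itself, its relative Nfe2, the glutathione transferases Gstm1 and Gstm3, and Osgin1, an oxidative stress-induced growth inhibitor. The higher ones were Rbm45, the gene of a protein that binds RNA, and Kcnv1, which encodes a modulatory potassium channel subunit. In the limma fit, 692 genes (3.05%) had an unadjusted p under 0.05, 353 higher and 339 lower. That count moved with the fit, to 400 with only the brainstem arrays, 1251 with the replicate number as a block and 1316 without knockout 2. The middle of the distribution was narrow: the median difference of all genes was 0.0037, the quartiles were -0.11 and 0.11, and the median standard error was 0.173. The calls rest on a spread shared with the other regions: with only the 6 brainstem arrays in the limma fit, Rbm45 kept its call with an adjusted p of 0.0495. There the adjusted p was 0.0632 for Nfe2l2, 0.0919 for Osgin1, 0.28 for Gstm1 and Nfe2, 0.266 for Gstm3 and 1 for Kcnv1 (limma). A transcript without a symbol, AK017540, was called in that fit as well (adjusted p = 0.0495, limma). It was read well above background on 3 wild-type and 0 knockout arrays. On the scale used here it was at least 4.34-fold lower, a bound that depends on the background correction. Its limma adjusted p was 0.2 in the fit of all arrays and 0.0246 with the slide as a block.

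**Figure D1:**
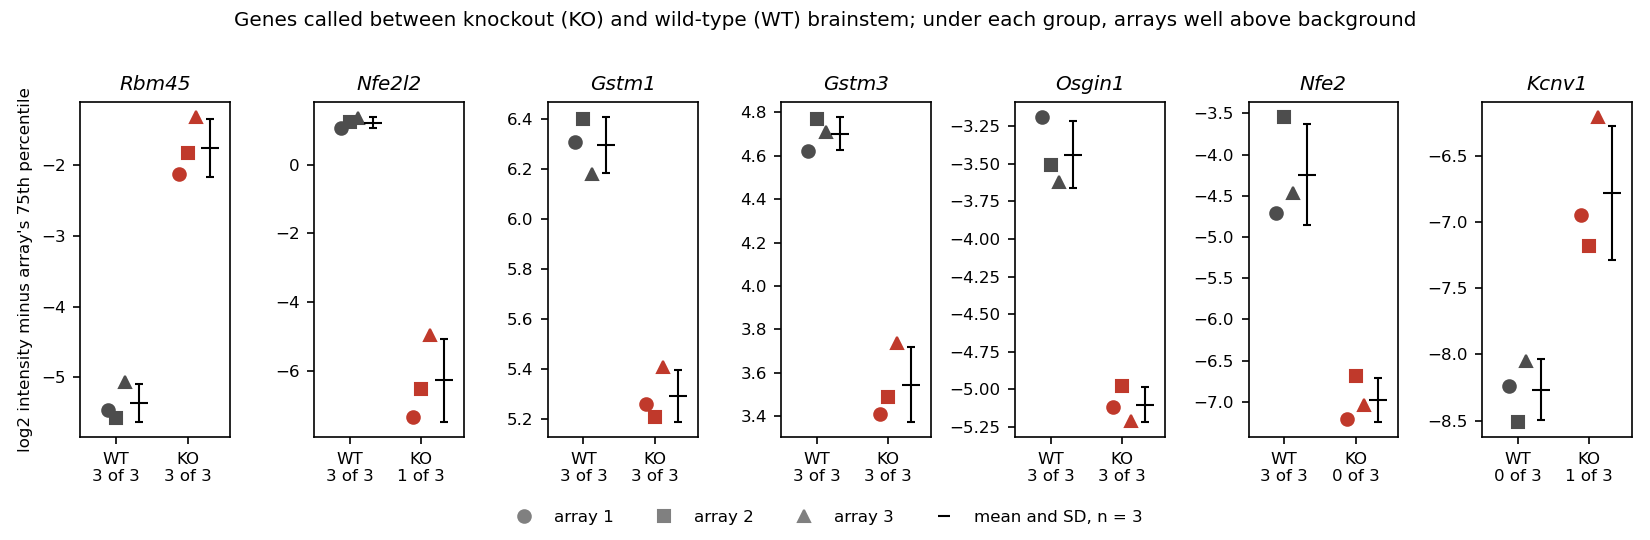
Level of the 7 called genes on each of the 6 brainstem arrays (log2 intensity minus the array's 75th percentile, with a separate axis for each gene). Symbols are arrays 1 to 3 of wild type (WT, grey) and knockout (KO, red), bars are the mean and SD, and the counts under each group are arrays on which the gene was well above background. The groups of all 7 genes lie apart, and Nfe2l2 falls from above 1 to below -4.

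Nfe2l2, the targeted gene, stood at 1.06, 1.25 and 1.36 in wild type. In knockout it stood at -7.35, -6.52 and -4.97, and only 1 of these 3 arrays was well above background. It fell in the knockout (limma adjusted p = 1.05e-05). No fold is given because most knockout arrays give only a bound. The other Nfe2l2 probe stood at 0.48, 0.55 and 0.74 in wild type and at -7.24, -6.86 and -5.56 in knockout. Where these probes lie relative to the deleted part is not known. With a different background correction, normexp, the measured difference, which is no bound, was -4.75 instead of -7.50.

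The remaining genes of the Nrf2 system passed no test, apart from Nfe2. Of 14 tested genes for family members, partners and regulators, counted with Nfe2l2 itself, 9 were lower and 5 higher, with a median of -0.05. Nfe2, the blood-cell relative of Nrf2, stood at -4.71, -3.55 and -4.47 in wild type and at -7.21, -6.69 and -7.04 in knockout. It was well above background on 3 wild-type and 0 knockout arrays. On the scale used here it was thus at least 4.14-fold lower in the knockout (limma adjusted p = 0.0253), a bound that depends on the background correction. It passed the filter on dim probes only through wild-type brainstem, the group where it is high, and without that filter its limma adjusted p was 0.0524. Its limma adjusted p rose to 0.0607 when the replicate number was a block and to 0.0826 when the slide was, and with normexp its difference was -0.44 with an adjusted p of 0.993 (limma). It was called in 1 of 6 cases when 1 array was left out. Of 6 tested erythrocyte markers 1 was lower and 5 were higher, with a median of 0.14, and their summed level, in multiples of the array's 75th percentile, was 84.5 to 124 in wild type and 104 to 128 in knockout.

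Nfe2l1, a relative that controls proteasome genes, stood at 5.08, 5.16 and 4.93 in wild type and at 5.17, 5.20 and 5.48 in knockout. These groups did not overlap, as in 3.8% of all genes in this direction, but the difference of 0.23 ± 0.131 was not called. Nfe2l3, the remaining relative, differed by 0.10 ± 0.136. The repressor Bach1, which competes for the same elements, differed by -0.07 ± 0.213. The small MAF partners differed by 0.00 ± 0.247 (Maff), -0.18 ± 0.186 (Mafg) and -0.12 ± 0.121 (Mafk). Of the genes that control Nrf2 turnover, Keap1 differed by -0.02 ± 0.177, the ligase genes Cul3 by 0.08 ± 0.143 and Rbx1 by 0.14 ± 0.146, and the KEAP1-binding autophagy receptor Sqstm1 by 0.04 ± 0.117. Gsk3b and Btrc, which act in the KEAP1-independent route of degradation, differed by -0.13 ± 0.0958 and -0.28 ± 0.191. In these 11 genes other than Nfe2l1 the groups overlapped.

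The 3 called NRF2 target genes encode enzymes or a growth regulator, and their promoters are shown because these genes fell together. The windows are the 250 bases before the start site in RefSeq on GRCm38.p6, 5′ to 3′ on the gene's strand, with a match to the AP-1 motif TGANTCA in capitals. Gstm1 has several start sites in the table, and the most downstream one is shown (chr3:108017819-108018068, minus strand). Gstm3 lies near it (chr3:107969175-107969424, minus strand), and Osgin1 is elsewhere (chr8:119436897-119437146, plus strand).
Gstm1: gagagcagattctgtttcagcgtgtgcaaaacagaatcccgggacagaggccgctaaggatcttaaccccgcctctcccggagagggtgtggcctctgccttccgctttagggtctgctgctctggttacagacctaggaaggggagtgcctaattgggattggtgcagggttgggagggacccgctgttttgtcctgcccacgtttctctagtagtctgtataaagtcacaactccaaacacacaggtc
Gstm3: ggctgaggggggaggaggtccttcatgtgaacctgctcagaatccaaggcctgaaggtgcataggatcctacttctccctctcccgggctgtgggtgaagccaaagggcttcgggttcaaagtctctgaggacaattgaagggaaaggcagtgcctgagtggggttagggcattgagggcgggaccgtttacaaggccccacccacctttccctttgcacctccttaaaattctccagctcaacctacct
Osgin1: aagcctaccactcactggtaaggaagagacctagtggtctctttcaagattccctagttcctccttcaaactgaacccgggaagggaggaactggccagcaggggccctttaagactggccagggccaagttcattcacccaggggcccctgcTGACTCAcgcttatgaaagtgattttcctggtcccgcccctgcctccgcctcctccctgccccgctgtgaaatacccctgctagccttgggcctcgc

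Both strands were searched for the core of the antioxidant response element, TGACNNNGC, and for TGANTCA. The first was found in 10.2% and the second in 6.75% of all 32851 promoter windows of this length. Of the 7 called genes 5 had an entry, and Nfe2 and Kcnv1 had none. The element core was found in the window of Nfe2l2 itself and in no window of Gstm1, Gstm3, Osgin1 or Rbm45. Osgin1 held tgactca with its first base 97 bases before the start. A match is only a run of letters and no match concerns only these windows.

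Gstm1 encodes an abundant glutathione transferase of the mu class. It stood at 6.31, 6.40 and 6.18 in wild type and at 5.26, 5.21 and 5.41 in knockout. All 3 knockout arrays lay below all wild-type arrays, and the gene fell by 1.0 ± 0.0845, or 2.01-fold (limma adjusted p = 6.17e-05). Its other probe stood at 2.43, 2.42 and 2.19 against 0.89, 1.03 and 0.77. Gstm3, of the same class and the same gene cluster, stood at 4.62, 4.77 and 4.71 in wild type and at 3.41, 3.49 and 3.74 in knockout. It fell by 1.15 ± 0.116, or 2.22-fold (limma adjusted p = 0.00049). The probe sequences were not used here, so that signal of near-identical mu-class transcripts on a probe and that of its own gene cannot be told apart.

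The other mu-class genes passed no test. Gstm2 stood at -1.02, -1.11 and -0.84 in wild type and at -1.56, -1.41 and -1.40 in knockout, a difference of -0.46 ± 0.17 that was not called. Gstm6 differed by -0.29 ± 0.12, again without overlap of the groups. For Gstm4 and Gstm5 the groups overlapped, with differences of -0.11 ± 0.13 and 0.03 ± 0.0848. Over 22 tested glutathione transferase genes, 12 were lower and 10 higher, and the median difference was -0.01. Of these, 2 were called lower, against 0.0221% of all genes, and 5 had an unadjusted limma p under 0.05 and were lower, against 1.5% of all genes.

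Osgin1 stood at -3.19, -3.51 and -3.62 in wild type and at -5.12, -4.98 and -5.21 in knockout, and was well above background on all 6 arrays. It fell by 1.67 ± 0.221, or 3.17-fold (limma adjusted p = 0.0105). With normexp its difference was -0.69 with a limma adjusted p of 0.598. Leaving out 1 array at a time, it was called in 2 of 6 cases. Its dimmer probe differed by -0.23, with overlapping groups.

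Across 43 tested NRF2 target genes, 26 were lower and 17 higher, with a median of -0.04. For all genes 49% were lower. Besides the 3 called genes, those with an unadjusted limma p under 0.05 were 4 lower ones and 1 higher one. Aox1, which encodes aldehyde oxidase, stood at -0.34, -0.22 and -0.70 in wild type and at -1.47, -1.44 and -1.52 in knockout, a difference of -1.06 ± 0.253. G6pdx, the first enzyme of the pentose phosphate pathway and a source of NADPH, stood at 3.13, 3.01 and 2.92 against 2.71, 2.76 and 2.56, a difference of -0.34 ± 0.0879. Me1, malic enzyme and another source of NADPH, differed by -0.25 ± 0.11. In these genes and in Gstm2, every knockout array lay below every wild-type array. Cbr3, a carbonyl reductase, went the other way, with 1.55, 1.75 and 1.75 in wild type, 1.90, 1.89 and 2.58 in knockout and a difference of 0.44 ± 0.171. Groups without overlap were found for 8 lower and 2 higher target genes, against 2.88% and 3.8% of all genes.

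**Figure D2:**
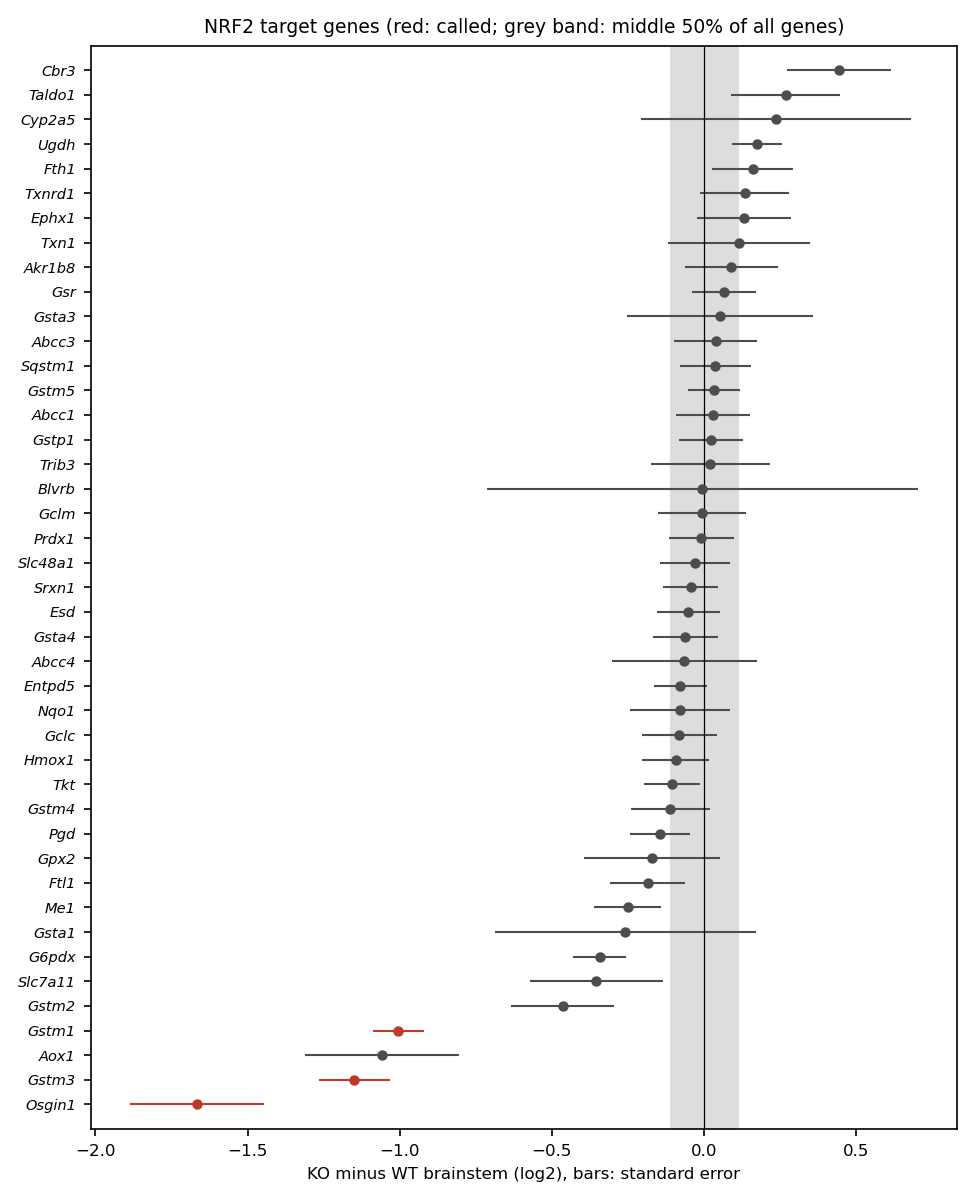
Knockout minus wild-type brainstem (log2, horizontal axis) for the 43 tested NRF2 target genes, with the standard error of the limma fit as bars. Called genes are red, and the grey band from -0.11 to 0.11 spans the range from the lower to the upper quartile of all tested genes. Osgin1, Gstm3 and Gstm1 lie at -1.67, -1.15 and -1.0, and most other genes lie near 0.

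Of the genes most often used as readouts of NRF2, 6 lay near 0 and Slc7a11 was lower (they are named for that use, after their values were seen). Nqo1, a quinone reductase, stood at -0.79, -0.82 and -1.04 in wild type and at -0.97, -0.89 and -1.03 in knockout. Hmox1, haem oxygenase 1, differed by -0.09 ± 0.11. The subunits of glutamate-cysteine ligase, which starts glutathione synthesis, differed by -0.08 ± 0.124 (Gclc) and -0.01 ± 0.145 (Gclm). Txnrd1, thioredoxin reductase 1, differed by 0.13 ± 0.146, and Srxn1, sulfiredoxin, by -0.04 ± 0.0914. In these 6 genes the groups overlapped. The cystine transporter gene Slc7a11 stood at -0.89, -0.87 and -0.76 in wild type and at -0.98, -1.15 and -1.45 in knockout, without overlap and not called.

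Other redox pathways showed medians close to that of all genes. Of 38 antioxidant enzyme genes, 19 were lower and 19 higher, with differences from -0.26 to 0.39 and 0 called. Of 16 tested NADPH genes 7 were lower, and Rpe, which acts in the pentose phosphate pathway, differed by 0.30 ± 0.115. Carbonyl and drug metabolising enzymes were lower for 19 of 38. The 39 proteasome genes lay between -0.24 and 0.29, with a median of 0.01. The 47 nuclear respiratory chain genes lay between -0.19 and 0.19, with a median of 0.02. Among 35 heat shock genes 0 were called, and Hspb1, a small heat shock protein, differed by -0.41 ± 0.177. In 29 iron and haem genes 0 were called. Slc11a1, the metal transporter of phagosomes, stood at -2.10, -2.07 and -2.18 in wild type and at -3.15, -2.59 and -3.21 in knockout, a difference of -0.87 ± 0.163 (limma adjusted p = 0.204). Blvra, biliverdin reductase A, differed by -0.19 ± 0.0761.

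Rbm45 rose most. It stood at -5.46, -5.57 and -5.06 in wild type and at -2.12, -1.82 and -1.32 in knockout, well above background on all 6 arrays. The difference was 3.61 ± 0.214, or 12.2-fold, with a limma adjusted p of 1.69e-06. With normexp it was 1.82, with a limma adjusted p of 1.21e-05. In the order of protein-coding genes on chromosome 2, Rbm45 is number 7 after Nfe2l2. Of the 15 protein-coding genes on each side of Nfe2l2, 20 were tested, 9 lower and 11 higher, with a median of 0.08. Rbm45 was the only one of them that was called, and 5 of the 20 had an unadjusted limma p under 0.05, against 3.05% of all genes. Groups did not overlap in 5 of the 20, against 6.67% of all genes. Both counts of 5 include Rbm45 itself and Hoxd1. The Hoxd genes are part of this window, and Hoxd1 passed the filter on dim probes only through wild-type brainstem, the group where it is high. The counts are therefore no test of the neighbours.

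Kcnv1 stood at -8.24, -8.51 and -8.05 in wild type and at -6.95, -7.18 and -6.21 in knockout. It was well above background on 0 wild-type arrays and 1 knockout array, so that no fold is given (limma adjusted p = 0.0273). It was not called with normexp, where the difference was 0.26, nor with quantile normalization (limma adjusted p = 0.23), nor without the filter on dim probes (limma adjusted p = 0.0596). Its other probe stood at -8.53, -8.25 and -6.79 in wild type and at -7.84, -6.96 and -6.52 in knockout, with overlap and likewise above background on only 1 array. It was called in 2 of 6 cases when 1 array was left out.

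**Figure D3:**
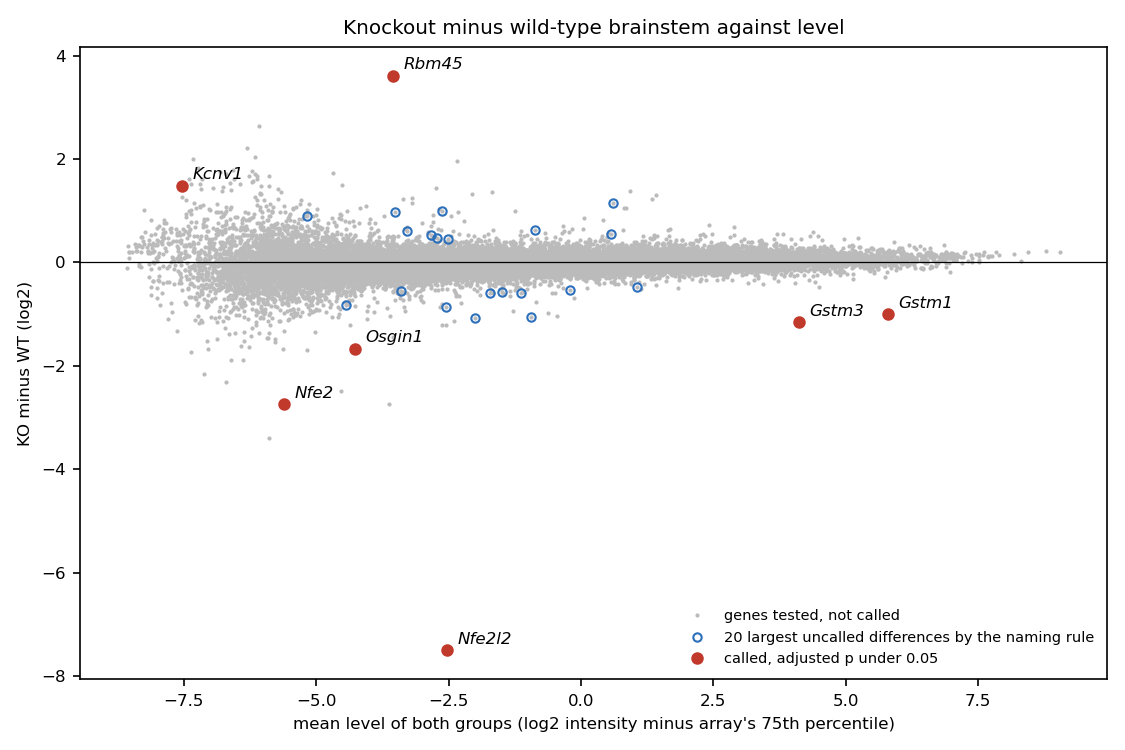
Knockout minus wild-type brainstem (log2, vertical axis) against the mean level of both groups for all 22671 tested genes (grey points). Called genes are red, and blue circles mark the 10 largest higher and 10 largest lower differences among genes not called. Rbm45 at 3.61 and Nfe2l2 at -7.50 lie farthest from 0, and the spread of the grey points widens at low levels.

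The called genes were set beside the other regions, whose arrays are separate. Nfe2l2 was lower there too (limma adjusted p = 1.53e-06 in cortex and 0.000486 in hippocampus). In hippocampus, where each of the 6 arrays read it above background, it differed by -5.60 ± 0.536, while in cortex it was above background on 0 knockout arrays. Rbm45 was higher in the knockout by 3.46 ± 0.214 in cortex and 3.43 ± 0.214 in hippocampus. Gstm1 differed by -1.03 ± 0.0845 and -0.81 ± 0.0845, and Gstm3 by -1.03 ± 0.116 and -0.81 ± 0.116. Osgin1 differed by -2.02 ± 0.221 and -1.30 ± 0.221. Nfe2 was well above background on 1 of these 12 arrays. Kcnv1 was above background on all 12 and differed by 0.11 ± 0.22 and 0.09 ± 0.22. In the limma test of the difference between regions, 0 genes had a knockout effect in brainstem that differed from cortex, with 202 genes (0.891%) at an unadjusted p under 0.05. Against hippocampus 0 genes differed, with 221 (0.975%) at an unadjusted p under 0.05. For Nfe2l2, Nfe2 and Kcnv1 the limma adjusted p of both differences was 1, and no size is given because a brainstem group was below background. Labels do not say whether the regions came from the same mice. With the mouse number as a random block the counts at an unadjusted p under 0.05 were 304 and 372, and without knockout 3 they were 439 and 485, with 0 called.

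Of the genes that were not called, the 10 largest higher differences in genes well above background on all 6 arrays, with groups apart, went from 0.45 to 1.15. Kcnj4, an inward rectifier potassium channel of forebrain neurons, stood at -0.15, -0.05 and 0.28 in wild type and at 1.25, 0.68 and 1.61 in knockout (limma adjusted p = 0.148). Its dimmer probe stood at -4.35, -5.46 and -4.67 against -2.95, -4.31 and -4.41, with overlap. The next were Sp7, a transcription factor of bone, with 0.99 ± 0.263, and Ackr2, a scavenging chemokine receptor, with 0.97 ± 0.231. Gpr6, an orphan receptor of striatal neurons, differed by 0.89 ± 0.281 and Rgs14, a G protein signalling regulator, by 0.64 ± 0.201. Actn2, an actinin, differed by 0.60 ± 0.161. Vit, Fcho2 and Fgfbp3 differed by 0.55, 0.47 and 0.45. Of these 10 genes, 9 had their highest knockout level on knockout 3.

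These genes were also compared with wild-type cortex, which shares the wild-type brainstem arrays with the genotype comparison. The wild-type cortex mean exceeded the wild-type brainstem mean by 4.86 for Kcnj4, 3.77 for Ackr2 and 3.59 for Rgs14. Kcnv1 was well above background on all 3 wild-type cortex arrays and 0 wild-type brainstem arrays. The excess was 2.52 for Gpr6 and 2.47 for Actn2. For Vit and Sp7 cortex was lower, by -1.60 and -0.38. Because the arrays are shared, these values are given only side by side.

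Forebrain markers were counted as a list. Of 22, 14 were higher and 8 lower, with a median of 0.21 against 0.0037 for all genes, and 0 were called. An unadjusted limma p under 0.05 was found for 5, all higher, against 1.56% of all genes. Drd1, the dopamine receptor of striatal neurons, stood at -4.10, -3.22 and -3.08 in wild type and at -2.13, -3.15 and -0.80 in knockout. In Drd1 the groups overlapped, since knockout 2 reached down to the wild-type arrays. Camk2a, a kinase of excitatory forebrain neurons, stood at 2.04, 2.15 and 1.98 against 2.83, 3.12 and 2.39. Bcl11b and Dlx1, transcription factors of forebrain neurons, differed by 0.45 ± 0.161 and 0.39 ± 0.168.

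The summed level of the 22 forebrain genes, on the same scale, was 39.4 to 46.3 in wild type and 46.1 to 66.8 in knockout, highest on knockout 3. Of the markers of cortical projection neurons, Neurod6 lay between -4.03 and -3.22 in wild type and between -3.76 and -3.64 in knockout. Tbr1 was well above background on 1 wild-type and 2 knockout arrays. The part of forebrain RNA in the higher levels of Kcnv1, Kcnj4 and the other genes named above was not tested. Across arrays of whole tissue, fewer cells of a type and less RNA per cell cannot be told apart.

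**Figure D4:**
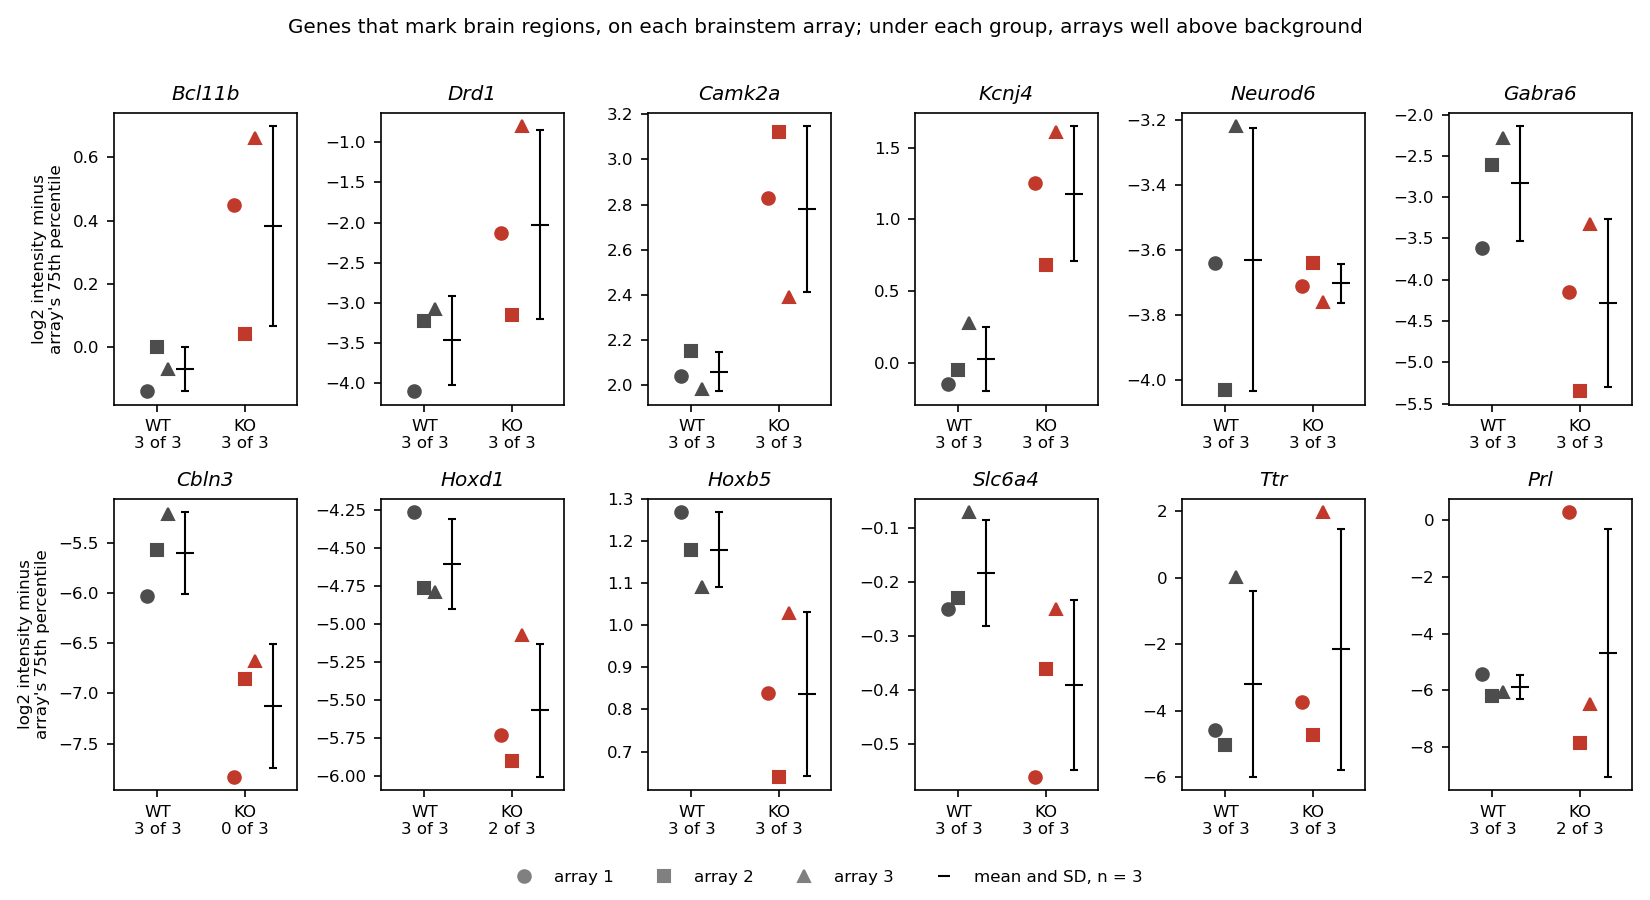
Level of 12 genes that mark brain regions or neighbouring tissues on each of the 6 brainstem arrays (log2 intensity minus the array's 75th percentile, with a separate axis for each gene). Symbols are arrays 1 to 3 of wild type (WT, grey) and knockout (KO, red), and bars are the mean and SD. Drd1 is highest on knockout 3 at -0.80, Ttr is high on both number 3 arrays, and Prl is high on knockout 1.

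Markers of the hindbrain lay on the other side of 0. Of 16 tested Hox genes, 14 were lower and 2 higher, with a median of -0.34 and 0 called. Hoxd1 stood at -4.26, -4.76 and -4.79 in wild type and at -5.73, -5.90 and -5.07 in knockout, where 2 of 3 arrays were well above background (limma adjusted p = 0.941). It passed the filter on dim probes only through wild-type brainstem, the group where it is high, and it is counted among the 14 lower genes. With normexp its difference was -0.15 instead of -0.97. Hoxb5 stood at 1.27, 1.18 and 1.09 against 0.84, 0.64 and 1.03, and Hoxc5 differed by -0.60 ± 0.503. Hoxd3 differed by -0.40 ± 0.165, and by 0.08 with normexp. The summed level of the 16 genes was 5.67 to 6.81 in wild type and 3.90 to 6.12 in knockout. Groups did not overlap in 4 lower genes and 0 higher ones, against 2.88% and 3.8% of all genes. The 4 include Hoxd3 and also Hoxd1, which the filter let in through the group where it is high. The count is therefore no test of the list.

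Cerebellar markers were lower for 11 of 16, with a median of -0.12 and 0 called. Gabra6, a GABA receptor subunit of granule cells, stood at -3.61, -2.61 and -2.28 in wild type and at -4.15, -5.35 and -3.33 in knockout, with overlap. Cbln3, also of granule cells, was well above background on 3 wild-type and 0 knockout arrays, at -6.03, -5.57 and -5.21 against -7.83, -6.86 and -6.68. It passed the filter only through wild-type brainstem, the group where it is high, and it is counted among the 11 lower genes. Its normexp difference was -0.08. Its other probe was above background on 1 wild-type and 1 knockout array, with a measured difference of 0.05 and overlap. The summed cerebellar level was 56.4 to 58.7 in wild type and 53.4 to 72.8 in knockout.

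Genes of the choroid plexus and the pituitary were high on particular arrays. Ttr, made by the choroid plexus, stood at -4.57, -5.03 and 0.03 in wild type and at -3.73, -4.73 and 1.98 in knockout, high on both arrays of the second slide. Over 18 choroid plexus genes the median difference was 0.31, but 0.05 within the first slide and 0.92 within the second. Prl, the pituitary hormone prolactin, stood at 0.30 on knockout 1 and between -7.86 and -5.41 on the other 5 arrays. The part of these tissues in the differences of other genes was not tested.

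The slides were compared for the lists as well. The forebrain median was 0.16 within the first slide and 0.29 within the second. The Hox median was -0.46 within the first slide, with 15 of 16 genes lower, and 0.04 within the second, with 7 lower. The NRF2 target median was -0.06 and 0.08. The respiratory chain median was -0.05, with 37 of 47 genes lower, and 0.23, with 8 lower. For heat shock genes it was -0.09 and 0.17, for iron and haem genes -0.02 and 0.17, and for myelin genes 0.01 and 0.18. The median of all genes was 0.0011 and -0.0025. The second slide holds only 1 array of each genotype. Of the called genes, Rbm45 differed by 3.55 and 3.74 within the slides, Gstm1 by -1.12 and -0.77, Gstm3 by -1.24 and -0.97, and Osgin1 by -1.70 and -1.59. For Nfe2l2, Nfe2 and Kcnv1, which a group read below background, no size is given. On each slide every knockout array lay below every wild-type array for Nfe2l2 and Nfe2 and above for Kcnv1.

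The 10 largest lower differences that were not called went from -0.47 to -1.07 and included Aox1 and Slc11a1. Of these 10 genes, 7 had their lowest knockout level on knockout 3. Slc5a11, a sodium-coupled inositol transporter, stood at -1.11, -2.01 and -1.26 in wild type and at -2.38, -2.60 and -2.62 in knockout. Myh3, the embryonic myosin heavy chain, differed by -0.82 ± 0.262, and by -0.23 with normexp, and its other probe by -0.50 with overlap. Tmem176a, a membrane protein, differed by -0.60 ± 0.201, and its other probe by -0.57. Wnt7a, a ligand that acts on brain endothelium, differed by -0.58 ± 0.161 and Pgf, placental growth factor, by -0.56 ± 0.147. Itga6, a laminin receptor subunit, stood at 0.09, 0.14 and -0.02 against -0.46, -0.23 and -0.71. Ccdc3, a secreted protein, differed by -0.54 ± 0.151, and by -0.24 with normexp. Med20, a Mediator subunit, differed by -0.47 ± 0.159, and its other probe by -0.16 with overlap.

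Some of these lower genes had differences of like size in the other regions. Aox1 differed by -1.35 ± 0.253 in cortex and -1.09 ± 0.253 in hippocampus, and Slc11a1 by -0.92 ± 0.163 and -0.70 ± 0.163. Itga6 differed by -0.66 ± 0.14 and -0.48 ± 0.14. For Myh3 the differences there were -0.03 ± 0.262 and -0.07 ± 0.262. Kcnj4 differed by 0.23 ± 0.203 in cortex and -0.18 ± 0.203 in hippocampus. No difference between regions was called for these genes.

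Genes of glia and immune cells were described by list. Of 28 interferon and MHC class I genes, 24 were higher and 4 lower, with a median of 0.10 and 0 called. An unadjusted limma p under 0.05 was found for 0 of them, against 3.05% of all genes. Groups did not overlap in 6, all higher, against 3.8% of all genes. Ifi27, Gbp3 and H2-K1 differed by 0.26 ± 0.142, 0.33 ± 0.188 and 0.32 ± 0.182. The summed level of this list was 47.3 to 50.1 in wild type and 51.9 to 56.8 in knockout. Within the slides its median was 0.11, with 5 of 28 genes lower, and 0.15, with 11 lower.

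Microglial markers were higher for 13 of 18, with a median of 0.07 and 0 called. Aif1 and C1qc differed by 0.14 ± 0.0916 and 0.19 ± 0.113. The summed microglial level was 55.3 to 57.5 in wild type and 54.2 to 65.2 in knockout. The chemokine gene Ccl4 stood at -4.56, -4.63 and -5.11 against -4.23, -3.49 and -4.26, and Ccl3 differed by 0.73 ± 0.305 with overlap. Complement C3 stood at 0.40, 0.00 and 0.23 in wild type and at -0.55, -0.37 and -0.50 in knockout, a difference of -0.68 ± 0.256 that was not called.

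Astrocyte markers were lower for 11 of 18, with a median of -0.04. Gfap, the intermediate filament of astrocytes, stood at 2.10, 1.84 and 2.11 against 1.57, 1.65 and 1.82, while Slc1a3, a glutamate transporter, differed by 0.33 ± 0.15. Neither was called. Myelin genes were higher for 14 of 19, with a median of 0.08. Of 10 serotonin genes 8 were lower, with a median of -0.08, and of 15 noradrenergic and dopaminergic genes 12 were lower, with a median of -0.09. In these lists 0 genes were called.

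Channels and receptors of neurons were counted last. Among 55 potassium channel genes, 27 were lower and 28 higher, with Kcnv1 the only 1 called. Kcnh3, a forebrain channel, stood at -5.45, -5.20 and -4.84 in wild type and at -4.01, -4.86 and -4.30 in knockout, with overlap. Among 36 glutamate and GABA receptor genes, 16 were lower and 20 higher. Gria1 and Grm3 differed by 0.43 ± 0.148 and 0.49 ± 0.211, with groups apart, and 0 were called.

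**Figure D5:**
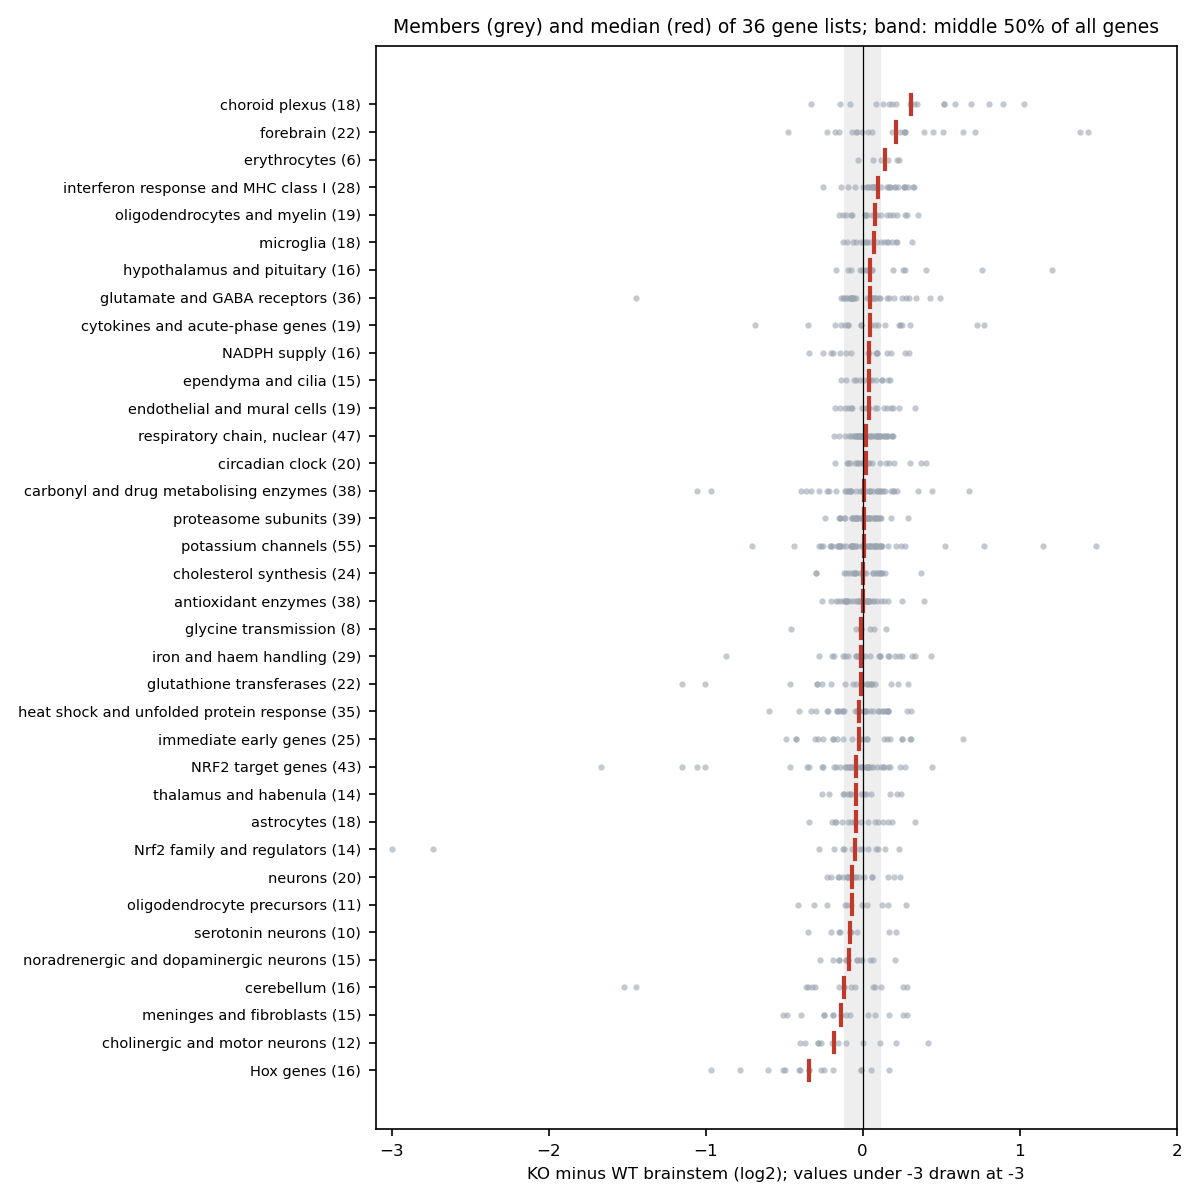
Knockout minus wild-type brainstem (log2, horizontal axis) for the tested members (grey points) and the median (red bar) of 36 gene lists, with the number of tested members in brackets. The grey band from -0.11 to 0.11 spans the range from the lower to the upper quartile of all genes, and values under -3 are drawn at -3. Choroid plexus and forebrain lists have the highest medians at 0.31 and 0.21, and the Hox list has the lowest at -0.34.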

How the data were processed

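Per the file headers, the authors quantified the arrays with Agilent Feature Extraction 10.7.3.1 and deposited scanner files with an intensity per spot, background-subtracted within the array and on no common scale between arrays; the headers name build mm9. Control spots and spots flagged as outliers (30 to 140 per brainstem array) were left out, spots of a probe were averaged, and log2 of the intensity minus the array's 75th percentile was used. The authors' deposited series table also holds intensity, and in 7 columns of the other regions it held another array than the title names, so it was not used for tests. Of 41174 probes, 30066 were kept because every array of some group (1 or more of 6) read them well above background. The brightest probe stood for a gene. Of the 41174 probes, 26690 matched 1 symbol in a RefSeq table, 14484 none and 0 several. Genes without a symbol were tested under their accession, which left 22671 genes, 14825 with a symbol.

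limma 3.58.1 in R 4.3.3 used all 18 arrays with a mean for each group (residual degrees of freedom 12, prior 2.33), two-sided, with Benjamini-Hochberg adjustment over all genes. The fit dropped 1 outlier value of Hlf on knockout 1. A gene dim on all arrays of a group has a bound from the lowest signal well above background on each array, or from its own level where that is higher. That lowest signal is no detection limit, and the bound holds only for this background subtraction. The number of arrays limits the precision, and p-values measure only the spread between these samples. Normexp used the median signal with an offset of 50.

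The text names Nfe2l2 and its family, all called genes, the 10 largest higher and lower uncalled differences with an unadjusted p under 0.01 and groups apart, and up to 4 genes with the smallest p of each list, with further genes where stated. Some genes that this rule names are not reported here. Further list members were named for their known roles, after their values were seen. Members and lists were chosen with earlier results of these data known. The fit was tested on simulated data. Alternatives were normexp, quantile normalization, other filters on dim probes, every probe on its own, blocks for slide and number, other moderation, only the brainstem arrays, each slide alone and each array left out. Same-numbered knockout and wild-type arrays deviated together in brainstem (r across genes 0.338, 0.44 and 0.621). Differently numbered ones on the first slide did so less (0.164 and 0.204), and between the slides r was -0.498 to -0.381. The numbers come from the titles, and number 3 coincides with the second slide.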

Additional observations from a re-analysis of the deposited data

How the results depend on the processing

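Against 7 genes called, 4 were called with normexp, 4 among genes well above background on all 6 brainstem arrays, 2 with only the 6 brainstem arrays, 11 within slide 2 (1 array of each genotype, with the spread of the other groups assumed) and 4 to 13 with 1 array left out. The count was 4 without wild type 1 or knockout 1 and 13 without knockout 2. With a replicate block 6 genes were called, and Nfe2 was the only call among the genes named here that it changed. Nfe2l2 and Rbm45 kept their calls in all of these fits except that Nfe2l2 lost its call with only the brainstem arrays and, being dim, was not tested under the stricter filter. Gstm1 and Gstm3 lost theirs with only the brainstem arrays and within slide 2. Without a filter on dim probes 5 were called, without Nfe2 and Kcnv1. Genes at an unadjusted p under 0.05 numbered 692, against 1023 with the slide as a block, 1251 with the replicate block, 400 with only the brainstem arrays, 1987 within slide 2 and 494 to 1316 with 1 array left out (the highest without knockout 2). For the difference from cortex they numbered 202, and from hippocampus 221, against 332 and 459 with the replicate block. Knockout effects that differed from cortex numbered 1 with quantile normalization (against 0) and 0 to 1 with 1 array left out, and from hippocampus 0 to 1. Without knockout 2 that gene was Sla2 in both, named after its values were seen, and Kcnj4 and Slc11a1 were called. Kcnj4 was also called with trended, robust moderation and Fgfbp3 within slide 2. Signs were followed through these fits for only part of the genes named here, without Ttr and Prl, which were high on particular arrays. Among the genes followed, signs turned only for uncalled ones. Of the followed genes whose sign turned, Hoxd3 differed by -0.40 in the fit of all arrays, and the others by less. With normexp Gclm was 0.043, Hoxd3 0.079, Keap1 0.0068 and Maff 0.042. With quantile normalization Gclm was 0.014, Gstm5 -0.036 and Sqstm1 -0.025. Within slide 1 Gclm was 0.015, Rbx1 -0.0025, Sqstm1 -0.030 and Txnrd1 -0.0064. Within slide 2 Bach1 was 0.33, Cul3 -0.26, Gclc 0.080, Hmox1 0.079, Maff 0.39, Nqo1 0.011 and Srxn1 0.090. With 1 array left out, the differences ran from -0.19 to 0.11 for Bach1, -0.018 to 0.17 for Cul3, -0.060 to 0.070 for Gclm, -0.20 to 0.032 for Gstm4 and -0.015 to 0.076 for Gstm5. They ran from -0.19 to 0.0088 for Hmox1, -0.15 to 0.13 for Keap1, -0.27 to 0.21 for Maff, -0.33 to 0.076 for Mafg, -0.0089 to 0.17 for Nfe2l3, -0.017 to 0.25 for Rbx1 and -0.037 to 0.087 for Sqstm1. The cause of these changes was not tested. Genes near background, such as Kcnv1, Nfe2, Cbln3 and Hoxd1, are the least certain in size, since signal over background limits them.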
